A study of Homo sapiens with 6 samples.

Results

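The genes described here make cholesterol and fatty acids from acetyl-CoA, together with a few of the factors that regulate and use these routes. They were chosen by name: 36 genes were listed, and each was taken from the gene table by its symbol on a primary chromosome, giving 36 of the 64253 genes in the table. The study sequenced RNA of H69, an immortalised human cell line with a bile duct epithelial (cholangiocyte) origin, labelled as passage 30 to 32. There were 3 libraries of cells given vehicle, whose content the labels do not name, and 3 of cells treated with 10 ng/ml of recombinant human TGF-beta over 16 h; the isoform of TGF-beta is not named. All 6 libraries come from the same line, and the labels do not say whether replicates were separate cultures, so the p-values measure only how far these samples spread, and that spread may be technical.

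As background, cholesterol is built through the mevalonate route: acetyl-CoA is condensed to mevalonate, mevalonate to the isoprenoid farnesyl diphosphate, farnesyl diphosphate to squalene, and squalene is oxidised and closed to lanosterol, which is trimmed and reduced to cholesterol. Fatty acid synthesis starts from the same acetyl-CoA, which is carboxylated and extended to palmitate, and then elongated, desaturated and activated with coenzyme A. The transcription factors SREBP-2, encoded by SREBF2, and SREBP-1, encoded by SREBF1, activate these genes. When sterols are plentiful, INSIG proteins hold the SREBP precursors in the endoplasmic reticulum, so that their target genes are usually transcribed less.

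Libraries held 37205862 to 54160521 counted reads. Values below are read counts scaled to library size (CPM) with TMM factors, which sets the libraries to a common scale on the assumption that most genes do not differ; 1 CPM stood for 35.7 to 56.2 reads. Levels of different genes are compared only with the RPKM that the authors deposited, which also divides by gene length. Transcripts of the TGF-beta target SMAD7 rose, from 13.1 ± 2.45 to 73.1 ± 3.09 CPM (mean ± SD, n = 3). The biliary keratins KRT7, KRT8, KRT18 and KRT19 were abundant, whereas CFTR was at 0 in every library and SPP1 was at or near 0. Vehicle replicate 1 stood apart: comparing gene counts with those of the other vehicle libraries gave chi-square values of 23.5 and 26.0 for each degree of freedom, against 2.50 to 4.70 for the other pairs of replicates. Calls among the 36 genes that it changes are given with and without it. The same is done for some, not all, named genes in which it lies far from the other vehicle libraries.

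All 36 genes had enough counts to be tested. After TGF-beta, 12 were higher, 7 were lower and 17 did not pass the test, where a call needs a Benjamini-Hochberg adjusted p below 0.05 in the edgeR quasi-likelihood test across 20992 genes. The share called was 52.8%, against 40.1% of all genes tested (19.7% higher and 20.4% lower) and 48.4% (26.5% higher and 22% lower) of the 8879 protein-coding genes at least as abundant as the least abundant of the 36. The median log2 fold change over the 36 was 0.08, beside -0.01 over all genes tested. Scaling by library totals alone, which moved the median of all genes from -0.01 to -0.14, gave 7 higher and 12 lower with a median of -0.05, so the balance of rises and falls depends on the scale. On that scale MVK, FDFT1, SREBF2, ACLY and ELOVL1 joined the falls, and NSDHL, EBP, DHCR7, SREBF1 and FADS2 were no longer called higher. ACLY and ELOVL1 were also called lower by limma on the RPKM. Without vehicle replicate 1, 16 were higher and 9 were lower, when 50.4% of all genes were called.

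Most of the changes were small. Only SCD was called higher by at least 1.5-fold, where 8.47% of all genes were, and only ELOVL6, LPIN1 and TM7SF2 were called lower by that much, where 7.8% of all genes were. For 22 of the 36 genes the CPM of vehicle and TGF-beta libraries had separate ranges, with 15 higher and 7 lower in the TGF-beta libraries; 25.4% of all genes were higher and 26.9% lower without overlap. Reads of the 36 genes made up 1.373 ± 0.0266% of all counts with vehicle and 1.505 ± 0.00842% with TGF-beta (mean ± SD, n = 3 each). SCD alone went from 0.172 ± 0.00905% to 0.307 ± 0.00365% of the counts. The other 35 genes together held 1.201 ± 0.0184% and 1.198 ± 0.00951%, so as a share of all counts the increase lay with SCD. In TMM-scaled CPM, the 36 genes summed to 12861 to 13315 in vehicle and 15575 to 15907 in TGF-beta libraries. SCD went from a mean of 1647 to 3206 CPM, a smaller rise, so on that scale the other 35 together also rose. In a bulk library, fewer cells with a transcript and less transcript per cell cannot be told apart.

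**Figure D1:**
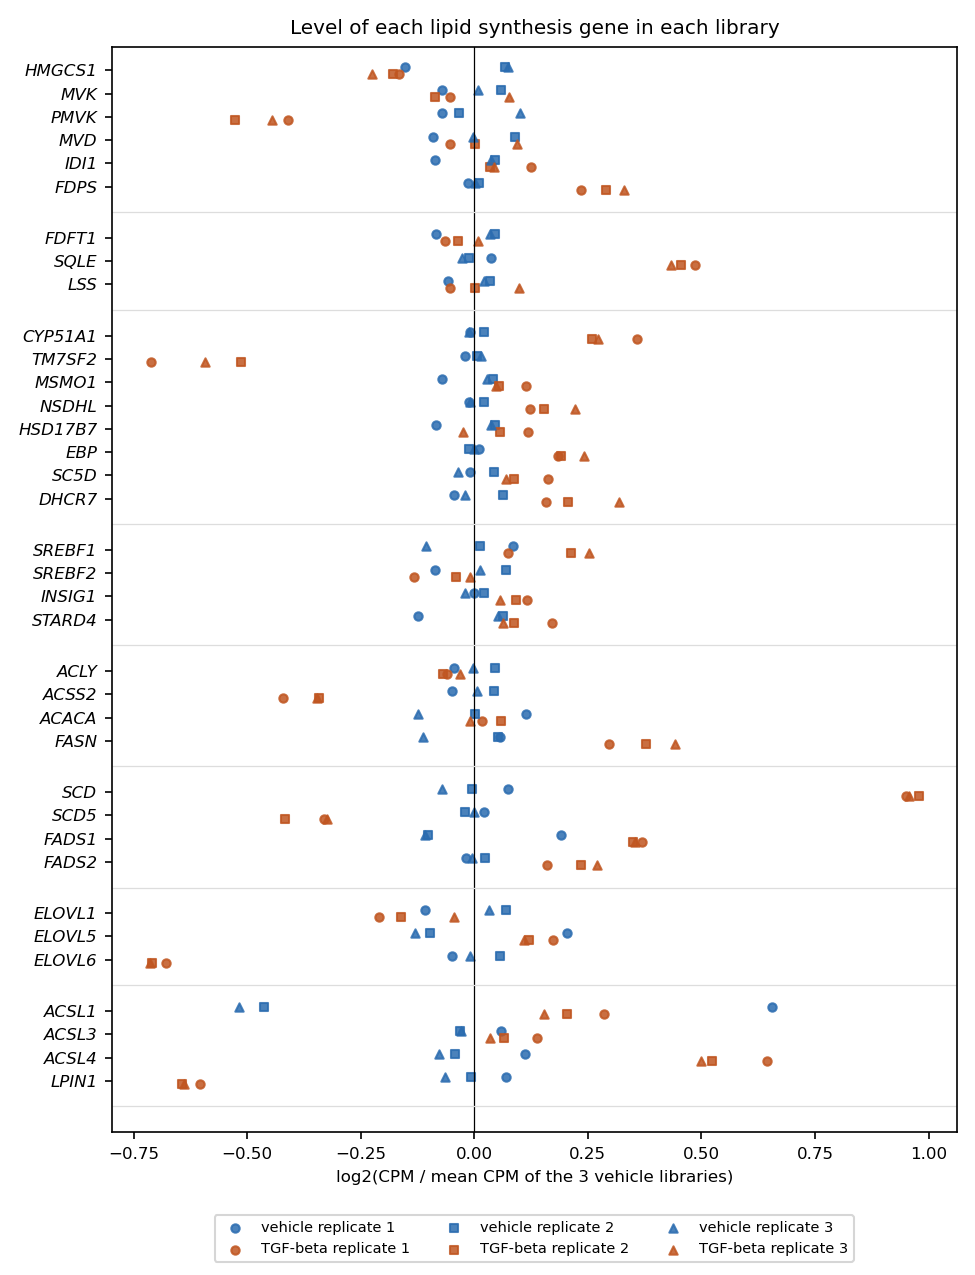
Each point is the level of a gene in 1 library, as log2 of its CPM over the mean CPM of the 3 vehicle libraries (x axis), with the 36 genes ordered by role (y axis; thin lines separate roles). The TGF-beta points of SCD lie furthest to the right and those of ELOVL6, LPIN1 and TM7SF2 furthest to the left, while for most genes the points of the conditions lie close together.

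Promoter sequence was printed for 5 of the genes to show what lies before genes that rose (SCD, NSDHL and SREBF1), a gene that fell (TM7SF2) and SREBF2, which did not pass the test. The RefSeq promoter table (GRCh38.p14) held 33 of the 36 genes; FASN, FDFT1 and SQLE were not among them. The 250 bases before each start were searched on both strands for 3 motifs: the core of the sterol regulatory element that SREBPs bind, TCACNCCAC; the CCAAT box bound by NF-Y, CCAAT; and the GC box bound by SP1-type factors, GGGCGG. No motif contains another. The stretches below run 5′ to 3′ in the direction of transcription, within that window and up to the annotated gene start, with every match to a motif on either strand in capitals.
SCD (chr10:100346983-100347123, plus strand): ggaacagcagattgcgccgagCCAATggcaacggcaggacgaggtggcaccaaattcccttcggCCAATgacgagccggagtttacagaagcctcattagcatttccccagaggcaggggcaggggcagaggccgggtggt
NSDHL (chrX:152830813-152830966, plus strand): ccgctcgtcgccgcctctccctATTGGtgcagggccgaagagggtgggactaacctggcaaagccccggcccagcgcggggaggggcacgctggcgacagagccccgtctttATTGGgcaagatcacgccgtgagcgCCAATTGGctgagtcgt
SREBF1 (chr17:17837003-17837236, minus strand): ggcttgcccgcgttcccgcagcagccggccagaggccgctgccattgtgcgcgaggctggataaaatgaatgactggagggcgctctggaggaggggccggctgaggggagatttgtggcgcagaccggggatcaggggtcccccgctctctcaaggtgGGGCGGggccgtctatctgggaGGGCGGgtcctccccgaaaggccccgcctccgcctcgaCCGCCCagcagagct
TM7SF2 (chr11:65111622-65111844, plus strand): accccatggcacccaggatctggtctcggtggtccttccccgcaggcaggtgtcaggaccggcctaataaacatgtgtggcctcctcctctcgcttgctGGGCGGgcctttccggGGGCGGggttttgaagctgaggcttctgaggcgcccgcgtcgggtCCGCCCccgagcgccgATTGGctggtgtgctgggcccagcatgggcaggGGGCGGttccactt
SREBF2 (chr22:41832855-41833078, plus strand): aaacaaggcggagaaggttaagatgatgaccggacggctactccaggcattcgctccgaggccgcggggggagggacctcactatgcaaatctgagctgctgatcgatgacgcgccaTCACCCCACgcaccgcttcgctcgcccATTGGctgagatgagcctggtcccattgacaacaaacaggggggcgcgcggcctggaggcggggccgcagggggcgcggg

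In these stretches SCD has a pair of CCAAT boxes and TM7SF2 has 4 GC boxes and 1 CCAAT box, read as ATTGG on the reverse strand. The exact sterol element core was found in the window of 2 of the 33 genes, SREBF2, 133 bases before the start, and ACSL1, 242 bases before the start on the reverse strand. It was in 1.19% of the 15843 protein-coding genes with a window. A CCAAT box was in 25 of the 33 genes (75.8%), beside 40.2% of protein-coding genes, and a GC box was in 31 (93.9%), beside 62.1%. Some genes have more than 1 start, and a gene was counted if any of its windows held the motif. Of the 49 windows of the 33 genes, 59.2% held a CCAAT box, beside 32.0% of all 35116 windows. For the GC box these shares were 81.6% and 42.6%. By call, the CCAAT box was in 5 of 10 genes that rose, 4 of 7 that fell and 16 of 16 that did not pass the test; the GC box was in 9 of 10, 7 of 7 and 15 of 16. These are matches of letters in a window and are given as a description without a test.

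Of the 6 enzymes from acetoacetyl-CoA to farnesyl diphosphate, 1 rose, 2 fell and 3 did not pass the test. FDPS, the synthase that makes farnesyl diphosphate (ENSG00000160752, chr1:155308748-155320666, hg38), had 561, 570.5 and 567 CPM in vehicle replicates 1, 2 and 3 and 666, 692 and 711 CPM in TGF-beta replicates 1, 2 and 3. Every TGF-beta library was above every vehicle library, with a log2 fold change of 0.29 (SE 0.04, adjusted p = 0.00033, edgeR quasi-likelihood test). PMVK, the phosphomevalonate kinase (ENSG00000163344, chr1:154924734-154936991), had 18.7, 19.2 and 21.1 CPM in the vehicle and 14.8, 13.7 and 14.4 CPM in the TGF-beta libraries, in the same order. Here every TGF-beta library was below every vehicle library, with a log2 fold change of -0.46 (SE 0.07, adjusted p = 0.000391, edgeR quasi-likelihood test).

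HMGCS1, the HMG-CoA synthase at the head of the mevalonate route, was lower by a smaller amount and its call did not hold in each setting. It had 655, 763 and 767 CPM in the vehicle and 649, 643 and 623 CPM in the TGF-beta libraries, so that vehicle replicate 1 lay close to the TGF-beta libraries and the other vehicle libraries lay higher. The log2 fold change was -0.19 (SE 0.06, adjusted p = 0.0296, edgeR quasi-likelihood test), and the call was lost on leaving out vehicle replicate 2 or 3 or any TGF-beta library (adjusted p of 0.0742 to 0.123). The mevalonate kinase MVK, the decarboxylase MVD and the isomerase IDI1 had log2 fold changes of -0.02, 0.02 and 0.07, with 95% intervals of -0.14 to 0.10, -0.11 to 0.14 and -0.04 to 0.18. With library totals alone MVK was called lower.

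Among the 3 enzymes from farnesyl diphosphate to lanosterol, only the middle step passed the test. SQLE, the squalene epoxidase (ENSG00000104549), had 324, 314 and 311 CPM in the vehicle and 443, 433 and 427 CPM in the TGF-beta libraries. The libraries of each condition lay within a narrow range and did not overlap, with a log2 fold change of 0.46 (SE 0.04, adjusted p = 9.22e-06, edgeR quasi-likelihood test), the largest rise among the 17 sterol enzymes. The squalene synthase FDFT1 and the lanosterol synthase LSS, on either side of it in the route, had log2 fold changes of -0.03 (95% interval -0.14 to 0.07) and 0.02 (-0.09 to 0.13). With library totals alone FDFT1 was called lower.

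From lanosterol to cholesterol, 4 of 8 enzymes rose, 1 fell and 3 did not pass the test. CYP51A1, the lanosterol demethylase (ENSG00000001630, chr7:92112151-92142952), had 373, 381 and 372 CPM in the vehicle and 482, 449 and 454 CPM in the TGF-beta libraries. Its conditions did not overlap, with a log2 fold change of 0.30 (SE 0.04, adjusted p = 0.000308, edgeR quasi-likelihood test). The next reductase in the route, TM7SF2 (ENSG00000149809, chr11:65111845-65116384), moved the other way. It had 49.4, 50.4 and 50.7 CPM in the vehicle and 30.6, 35.2 and 33.3 CPM in the TGF-beta libraries. All 3 TGF-beta libraries were below the vehicle libraries, with a log2 fold change of -0.60 (SE 0.06, adjusted p = 1.42e-05, edgeR quasi-likelihood test). LBR, a protein of the inner nuclear membrane with the same sterol reductase activity, was not among the 36 and also fell, with 200.2, 217 and 217 CPM in the vehicle and 179, 174 and 167 CPM in the TGF-beta libraries and a log2 fold change of -0.28 (SE 0.05, adjusted p = 0.000911, edgeR quasi-likelihood test).

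The later enzymes of this stretch rose by less. DHCR7, the reductase of the last step, the sterol dehydrogenase NSDHL and the sterol isomerase EBP had log2 fold changes of 0.23, 0.17 and 0.21 (adjusted p of 0.00527, 0.00973 and 0.00191, edgeR quasi-likelihood test). With library totals alone none of these 3 was called, at log2 fold changes of 0.10, 0.04 and 0.08, so that CYP51A1 was then the 1 enzyme of the 8 that rose; by limma on the RPKM, CYP51A1 and EBP rose. The methyl oxidase MSMO1, the ketoreductase HSD17B7 and the desaturase SC5D were not called, with log2 fold changes of 0.07, 0.05 and 0.11. Over the whole route the 17 enzymes comprised 6 that rose, 3 that fell and 8 that did not pass the test, with 0.07 as the median log2 fold change, and rises and falls stood at neighbouring steps.

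**Figure D2:**
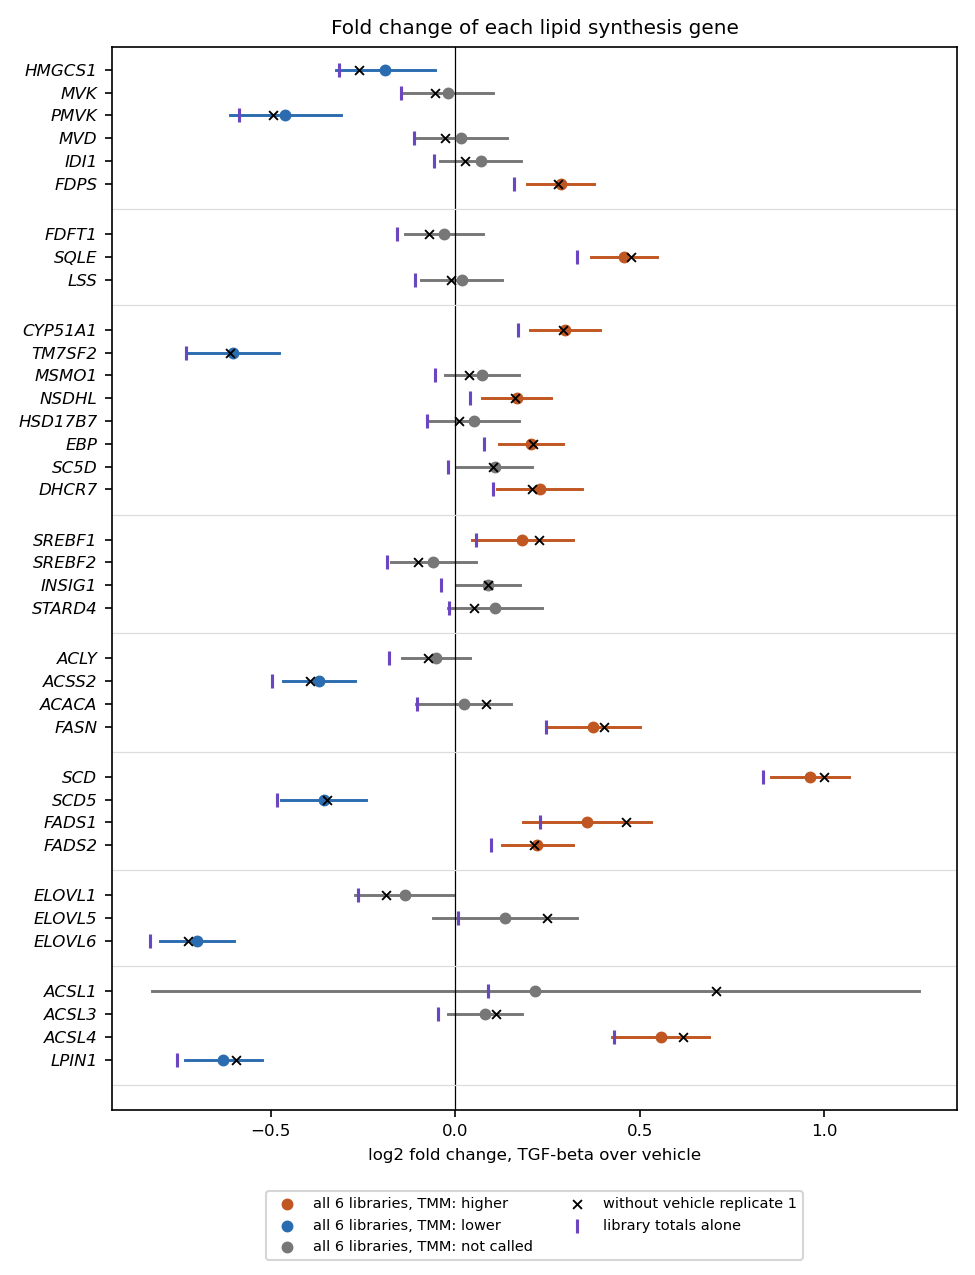
Points are the log2 fold change of TGF-beta over vehicle (x axis) for each gene (y axis, by role), with lines for 95% intervals and colour for the call. Crosses show the value without vehicle replicate 1 and vertical ticks the value with library totals alone; the ticks lie to the left of the points, and ACSL1 has by far the widest interval and the largest move without vehicle replicate 1.

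Among the 4 regulators and carriers, SREBF1 was called higher, and the call was not stable. SREBF1 (ENSG00000072310, chr17:17810399-17837002) had 103, 98.0 and 90.3 CPM in the vehicle and 102, 112 and 116 CPM in the TGF-beta libraries. The conditions overlapped, since TGF-beta replicate 1 lay below vehicle replicate 1, and the log2 fold change was 0.18 (SE 0.06, adjusted p = 0.0375, edgeR quasi-likelihood test). The call was lost with library totals alone (0.06), with limma on RPKM (0.08 and 0.09) and on leaving out replicate 2 or 3 of either condition (0.13 to 0.19).

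SREBF2 (ENSG00000198911, chr22:41833079-41907308) had 289, 322 and 309 CPM in the vehicle and 279.9, 298 and 305 CPM in the TGF-beta libraries. These overlapped, with a log2 fold change of -0.06 (SE 0.05, adjusted p = 0.395, edgeR quasi-likelihood test) and a 95% interval of -0.18 to 0.06. Leaving out vehicle replicate 1 brought it to -0.10, called lower, and it was also called lower with library totals alone. INSIG1, the sterol-responsive retention protein (ENSG00000186480, chr7:155297776-155310235), had 338, 343 and 333 CPM in the vehicle and 366, 360.3 and 352 CPM in the TGF-beta libraries. Its conditions did not overlap but differed little, with a log2 fold change of 0.09 (SE 0.04, adjusted p = 0.0976, edgeR quasi-likelihood test) and a 95% interval of 0.00 to 0.18, and it was called higher without vehicle replicate 1. STARD4, a cytosolic sterol carrier, was not called, with a log2 fold change of 0.11. On the RPKM scale, SREBF2 exceeded SREBF1 in every library, by 2.98, 3.49 and 3.64 times in the vehicle and 2.91, 2.82 and 2.80 times in the TGF-beta libraries.

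Of the 4 enzymes that supply acetyl-CoA and build palmitate, 1 rose and 1 fell. FASN, the fatty acid synthase (ENSG00000169710, chr17:82078338-82098332), had 1299, 1295 and 1155 CPM in the vehicle and 1535, 1623 and 1696 CPM in the TGF-beta libraries. All TGF-beta libraries were above the vehicle libraries, with a log2 fold change of 0.37 (SE 0.06, adjusted p = 0.000534, edgeR quasi-likelihood test). ACSS2, which makes acetyl-CoA from acetate (ENSG00000131069, chr20:34872146-34927962), had 228, 244 and 237 CPM in the vehicle and 177, 186 and 186 CPM in the TGF-beta libraries. It fell in all 3 TGF-beta libraries, with a log2 fold change of -0.37 (SE 0.04, adjusted p = 8.61e-05, edgeR quasi-likelihood test). ACLY, which makes acetyl-CoA from citrate, and ACACA, the carboxylase that commits it to fatty acids, had log2 fold changes of -0.05 (95% interval -0.15 to 0.04) and 0.02 (-0.11 to 0.15). ACLY was called lower with library totals alone and by limma on the RPKM.

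All 4 desaturases were called, 3 higher and 1 lower. SCD, the stearoyl-CoA desaturase that makes oleate and palmitoleate (ENSG00000099194, chr10:100347124-100364834), had 1732, 1640.0 and 1568 CPM in the vehicle and 3181, 3243 and 3194 CPM in the TGF-beta libraries. The lowest TGF-beta library was far above the highest vehicle library, and the log2 fold change was 0.96 (SE 0.05, adjusted p = 1.23e-07, edgeR quasi-likelihood test), a 1.95-fold rise. SCD5, the other stearoyl-CoA desaturase of human cells (ENSG00000145284, chr4:82629539-82798857), moved the opposite way. It had 30.4, 29.5 and 29.9 CPM in the vehicle and 23.8, 22.4 and 23.9 CPM in the TGF-beta libraries, without overlap, and a log2 fold change of -0.36 (SE 0.05, adjusted p = 0.000362, edgeR quasi-likelihood test). On the RPKM scale SCD5 was already at 0.0227 of the SCD level in the vehicle and was at 0.00910 of it in the TGF-beta libraries.

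FADS1 and FADS2, neighbouring genes whose enzymes desaturate polyunsaturated fatty acids, both rose, at log2 fold changes of 0.36 and 0.22 (adjusted p of 0.00544 and 0.00222, edgeR quasi-likelihood test). For FADS1 the vehicle libraries were uneven, at 491, 401 and 399 CPM, and the TGF-beta libraries close to each other, at 556, 549 and 550.0 CPM. Without vehicle replicate 1 the log2 fold change of FADS1 was 0.46. With library totals alone FADS2 was not called, at 0.10. The RPKM ratio of FASN to SCD went from 0.453 ± 0.0165 in vehicle to 0.301 ± 0.0146 in TGF-beta libraries (n = 3 each), since SCD rose by more than FASN.

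Of the 3 elongases, ELOVL6 fell and the others did not pass the test. ELOVL6, which extends palmitate to stearate (ENSG00000170522, chr4:110045846-110199199), had 86.1, 92.8 and 88.6 CPM in the vehicle and 55.7, 54.5 and 54.4 CPM in the TGF-beta libraries. The conditions were well separated, and the log2 fold change of -0.70 (SE 0.04, adjusted p = 8.85e-07, edgeR quasi-likelihood test) was the largest fall among the 36. ELOVL1, which elongates saturated chains, and ELOVL5, which elongates polyunsaturated chains, had log2 fold changes of -0.14 (95% interval -0.27 to -0.00) and 0.13 (-0.06 to 0.33). Both were called without vehicle replicate 1, ELOVL1 lower at -0.19 and ELOVL5 higher at 0.25. ELOVL1 was also called lower with library totals alone and by limma on the RPKM.

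Among the acyl-CoA synthetases, which activate free fatty acids, ACSL4 rose. This enzyme prefers polyunsaturated chains such as arachidonate (ENSG00000068366, chrX:109624244-109733403), and had 225, 202 and 197 CPM in the vehicle and 325, 299 and 294 CPM in the TGF-beta libraries. There was no overlap, with a log2 fold change of 0.56 (SE 0.06, adjusted p = 4.02e-05, edgeR quasi-likelihood test). ACSL3, a synthetase found on lipid droplets, had a log2 fold change of 0.08 and was called higher without vehicle replicate 1, at 0.11. The RPKM ratio of ACSL4 to ACSL3 went from 1.002 ± 0.0364 in vehicle to 1.39 ± 0.0255 in TGF-beta libraries.

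Of the 36 genes, ACSL1 moved most on leaving out vehicle replicate 1. It had 461, 212 and 205 CPM in the vehicle and 357, 337 and 326 CPM in the TGF-beta libraries, so that vehicle replicate 1 was above and the other vehicle libraries were below all TGF-beta libraries. The log2 fold change was 0.22 (SE 0.38, adjusted p = 0.704, edgeR quasi-likelihood test) with all libraries and 0.71 (adjusted p = 1.49e-14 by the same test) without vehicle replicate 1. Across the 36 genes, vehicle replicate 1 was the highest vehicle library for 13 and the lowest for 20, beside 40.1% and 41.5% of all genes tested. LPIN1, the phosphatidate phosphatase of glycerolipid synthesis (ENSG00000134324, chr2:11677595-11827409), fell in every TGF-beta library, from 114, 108 and 104 CPM to 71.3, 69.3 and 69.5 CPM, with a log2 fold change of -0.63 (SE 0.05, adjusted p = 2.73e-06, edgeR quasi-likelihood test). Over the 15 genes that make and activate fatty acids, from ACLY to LPIN1, 5 rose, 4 fell and 6 did not pass the test.

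Per unit of length, the vehicle levels of the 36 genes spanned from 3.06 RPKM for SCD5 to 135 RPKM for SCD. SCD stood at 135 ± 6.69 RPKM in vehicle and 247 ± 3.13 RPKM with TGF-beta (mean ± SD over 3 libraries), the highest of the 36 in both. ACLY came next in the vehicle, at 93.0 ± 2.57 RPKM, then HMGCS1, FDPS, FDFT1 and FASN at 67.9 ± 5.87, 66.8 ± 0.430, 65.6 ± 3.13 and 61.0 ± 3.83 RPKM. Of these, HMGCS1, FDPS and FDFT1 differed by less than the SD of HMGCS1. The 4 genes with the largest called falls, ELOVL6, LPIN1, TM7SF2 and PMVK, were all at the low end, with vehicle means of 5.36, 4.01, 6.46 and 6.74 RPKM. The RPKM are scaled to another library total than the CPM, and changes on this scale lie below those in CPM: the FASN mean, for example, went from 61.0 to 74.4 RPKM, and that of INSIG1 from 40.6 to 40.7 RPKM.

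**Figure D3:**
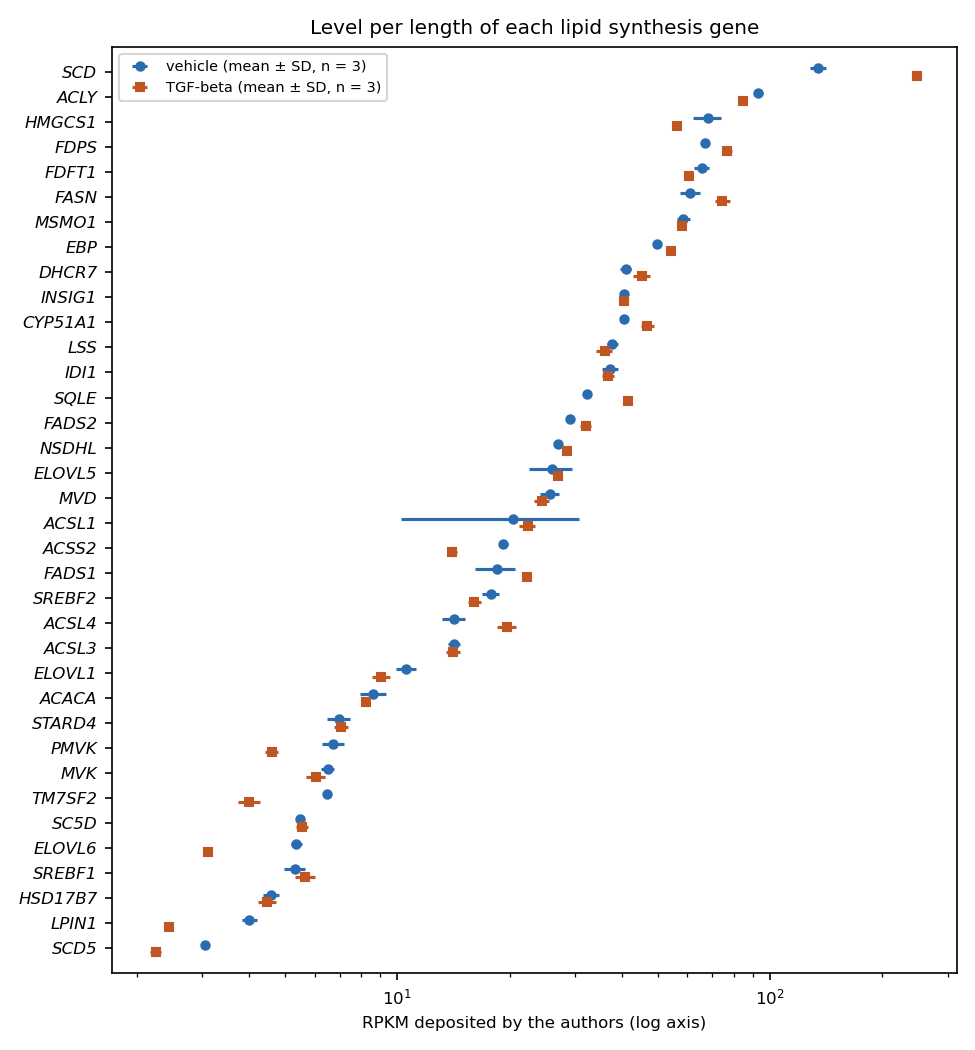
Points are the mean RPKM (x axis, log scale) of each gene (y axis, ordered by vehicle level) in vehicle and TGF-beta libraries, with bars for the SD over 3 libraries. SCD is highest in both conditions, at 135 and 247 RPKM, and the genes with the largest falls lie near the bottom of the plot.

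Reads could be shared with other genes, since the strand setting and the handling of multi-mapped reads are not given in the sources used here. In the GENCODE release 29 annotation, 17 of the 36 genes share exon bases with another gene of the table, and for 9 of them the overlapping genes had at least 5% of the gene's own count. FDPS shares 693 exon bases (18.6% of its exon length) with the antisense gene RUSC1-AS1, which had 49.3% of the FDPS count, and HMGCS1 shares 703 exon bases with the antisense gene CTD-2636A23.2, which had 14.7% of its count; without strand, reads of such pairs cannot be told apart. SREBF1 shares 6.9% of its exon length with RAI1 on the other strand, FADS1 and FADS2 share 490 bases with each other, and TM7SF2 shares 16 bases with VPS51. The pseudogene HSD17B7P2 had 18.4% of the HSD17B7 count, so the value of HSD17B7 is uncertain. The SCD pseudogene SCDP1 had 0.0611% of the SCD count.

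Markers of other cell types were read beside these results. The summed level of 8 fibroblast or stellate cell markers was 193 to 211 CPM in the vehicle and 399 to 437 CPM in the TGF-beta libraries, with 3 of the 5 tested higher and 1 lower, while LUM, COL3A1 and DES were at or near 0 in every library. Hepatocyte markers summed to 62.9 to 64.4 CPM in the vehicle and 73.6 to 75.7 CPM in the TGF-beta libraries, nearly all of it SERPINA1, with ALB, APOA1, APOA2 and TTR at or near 0. The adipocyte list, of cells that also make much fatty acid, summed to 0.23 to 0.45 CPM and 1.04 to 1.23 CPM, with ADIPOQ at 0. Its only tested member, LEP, rose from 0.125 ± 0.0568 to 0.882 ± 0.111 CPM (mean ± SD, n = 3 each). LEP had 8, 5 and 5 reads in the vehicle libraries and passed the count filter only through the TGF-beta libraries. Its place among the tested genes thus depended on that rise. The endothelial list summed to 20.1 to 24.3 CPM in the vehicle and 10.9 to 12.5 CPM in the TGF-beta libraries, with 2 of the 4 tested lower, KDR (-0.99) and PECAM1 (-1.18, log2 fold changes), and 0 higher, and CDH5 near 0. Immune markers summed to 9.09 to 10.8 CPM and 8.98 to 10.6 CPM, nearly all of it CD68, with PTPRC and CD3E at or near 0. Mitochondrial reads took 3.31 ± 0.246% of a vehicle library and 3.69 ± 0.160% of a TGF-beta library, and ribosomal protein reads 3.90 ± 0.154% and 3.34 ± 0.0292%. Their part in the results was not tested.

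The genes around these routes were read from 7 further lists, whose balance of rises and falls also depends on the scale. Of all genes tested, 40.1% were called, 50.4% without vehicle replicate 1, and 29.5% to 33.5% on leaving out 1 of the others. With library totals alone 47.5% were called, 27.0% of them higher, and by limma on the RPKM 45.7%, 34.7% or 34.8% of them higher. The limma filter on RPKM tested fewer genes in some lists. It kept 11 for LXR and efflux, 12 for uptake, 15 for other fatty acid synthesis, 18 for glycerolipid and 25 for oxidation. Of 9 other tested sterol synthesis genes, 2 rose and 1, LBR, fell (median log2 fold change 0.03), but 3 and 2 without vehicle replicate 1, 1 rise without vehicle replicate 2 or 3, and 0 rises on leaving out any TGF-beta library. With library totals alone the list gave 0 and 3, and by limma on the RPKM 0 and 2. The largest rise was FAXDC2, a member of the sterol hydroxylase family, with a log2 fold change of 0.32, from 21.4, 27.2 and 27.6 CPM to 31.1, 30.8 and 33.4 CPM, or 0.21 without vehicle replicate 1. The list of SREBP control had 16 tested genes. Among them, the NF-Y subunits NFYA, NFYB and NFYC, SP1 and MID1IP1 are not processing genes. Of the 16, 2 rose (including MID1IP1, 0.23) and 5 fell (including SP1, -0.16), with a median of -0.11. Without vehicle replicate 1 the list gave 4 and 8, and 1 rose without TGF-beta replicate 3. With library totals alone 0 rose and 9 fell (median -0.23), and by limma on the RPKM 1 rose and 9 fell. ERLIN2, a protein of the endoplasmic reticulum, fell from 73.4, 82.8 and 84.4 CPM to 54.6, 51.5 and 51.7 CPM, with a log2 fold change of -0.61 (SE 0.06, adjusted p = 1.87e-05, edgeR quasi-likelihood test), and SPRING1 (C12orf49 in the table), a factor that SREBP activation needs, rose by 0.24 on the log2 scale.

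Genes of sterol export and uptake moved both ways. Of 13 genes of the LXR and efflux list, 4 rose and 3 fell (median 0.12), or 7 and 3 without vehicle replicate 1, 2 and 3 with library totals alone, and 1 and 2 by limma on the RPKM. ABCA1, the cholesterol exporter, had 41.9, 27.6 and 24.6 CPM in the vehicle and 58.4, 60.6 and 54.8 CPM in the TGF-beta libraries, with a log2 fold change of 0.89 (SE 0.22, adjusted p = 0.0311, edgeR quasi-likelihood test), or 1.15 without vehicle replicate 1. It lost its call on leaving out any other library and without the filter on low counts. NCEH1, a cholesteryl ester hydrolase, fell from 35.2, 52.1 and 52.3 CPM to 20.1, 19.3 and 19.7 CPM, a log2 fold change of -1.24, or -1.41 without vehicle replicate 1, its lowest vehicle library.

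Of 13 genes of uptake and intracellular transport, 5 rose and 3 fell (median -0.08). The falls numbered 6 without vehicle replicate 1, 1 without vehicle replicate 2 or TGF-beta replicate 1 or 3, 0 without TGF-beta replicate 2 and 2 without vehicle replicate 3. With library totals alone 4 rose and 6 fell, and by limma on the RPKM 4 and 5. LRP1, a large endocytic receptor, rose without overlap from 291, 373 and 319.7 CPM to 832, 883 and 874 CPM, with a log2 fold change of 1.396 (SE 0.08, adjusted p = 4.51e-06, edgeR quasi-likelihood test).

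Of 20 tested genes in the list of other fatty acid synthesis, elongation and activation, 5 rose and 6 fell (median 0.00), or 8 and 7 without vehicle replicate 1, 5 and 8 with library totals alone, and 4 and 5 by limma on the RPKM. ACSS1, the mitochondrial counterpart of ACSS2, fell from 77.4, 36.6 and 38.0 CPM to 8.56, 7.81 and 9.08 CPM, with a log2 fold change of -2.58 (SE 0.39, adjusted p = 0.00795, edgeR quasi-likelihood test); vehicle replicate 1 was well above the other vehicle libraries, all of which exceeded the TGF-beta libraries, and without it the log2 fold change was -2.14. ELOVL3, a further elongase, rose by 1.48 on the log2 scale, from 2.89, 1.17 and 1.81 CPM to 5.85, 5.18 and 5.06 CPM, or by 1.85 without vehicle replicate 1. Of 23 tested glycerolipid and lipid droplet genes, 6 rose and 8 fell (median 0.03), or 10 and 9 without vehicle replicate 1, 3 and 11 with library totals alone, and 3 and 6 by limma on the RPKM. GPAM, the acyltransferase that begins glycerolipid synthesis, rose from 19.6, 17.5 and 17.2 CPM to 33.1, 32.7 and 31.7 CPM, a log2 fold change of 0.85. The droplet protein PLIN5 fell from low levels of 1.41, 1.71 and 1.68 CPM to 0.616, 0.552 and 0.516 CPM, a log2 fold change of -1.51.

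The list of fatty acid oxidation, the route opposite to synthesis, held 28 tested genes, of which 14 fell and 5 rose. Its median log2 fold change was -0.17. The called share was 67.9%, beside 40.1% of all genes tested. It was 48.4% among protein-coding genes averaging at least 17.0 CPM, the level of the least abundant synthesis gene. ACOX2 lies below that level, so this background is not matched to the oxidation list in abundance. The falls numbered 20 with library totals alone, 17 by limma on the RPKM and 11 to 15 on leaving out each library, and the rises 3 without TGF-beta replicate 2. The largest changes were in peroxisomal oxidases: ACOX3 rose from 14.5, 16.5 and 15.6 CPM to 55.1, 56.3 and 57.1 CPM, with a log2 fold change of 1.85 (SE 0.06, adjusted p = 4.70e-09, edgeR quasi-likelihood test), and ACOX2 fell from 2.36, 2.21 and 2.16 CPM to 0.448, 0.463 and 0.258 CPM, a log2 fold change of -2.51. The lists differ in size and members, and no test between them was made.

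**Figure D4:**
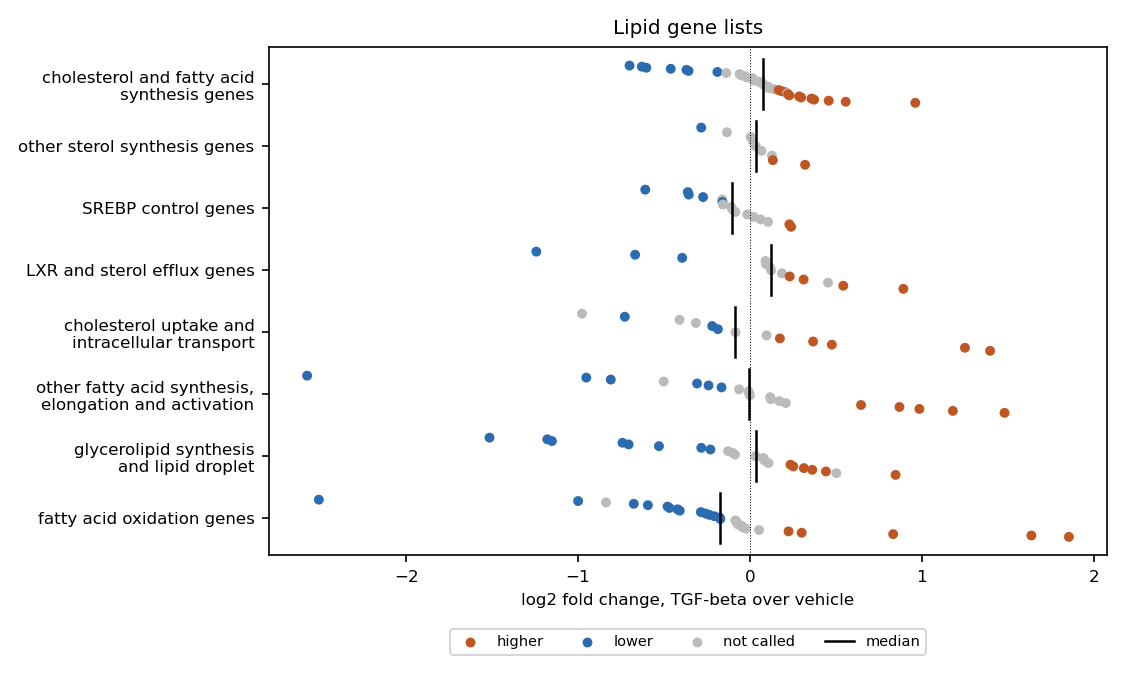
Each point is the log2 fold change (x axis) of 1 tested gene in the 36 synthesis genes and in 7 related lists (y axis), coloured by call, with a black line at the list's median. The synthesis genes lie between -0.70 and 0.96. The LXR, uptake, other fatty acid, glycerolipid and oxidation lists span more. The other sterol synthesis list (-0.28 to 0.32) and the SREBP control list (-0.61 to 0.24) span less. Medians of the 7 lists run from -0.17 to 0.12.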

How the data were processed

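RNA was sequenced from 3 vehicle and 3 TGF-beta samples, grouped by the titles and treatment in the labels. Per the submitters' processing notes, the tools were bcl2fastq, STAR 2.6.1 and featureCounts of Subread, with build hg38. The deposited counts are raw whole numbers of reads for each gene, per the file headers. The RPKM columns were made by the authors from counts, gene length and library size, per the file headers. Strand setting, multi-mapped reads and annotation release are not given in the sources used here. As featureCounts assigns reads by gene, overlapping or near-identical genes may share reads.

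In R 4.3.3, edgeR 4.0.16 was run with TMM scaling, a filterByExpr minimum count of 10 and its robust quasi-likelihood test comparing the TGF-beta with the vehicle samples, over the 20992 genes that passed the filter, with Benjamini-Hochberg adjustment. Standard errors were derived from the log2 fold change and F. Intervals of 95% use the model's degrees of freedom and are not adjusted for multiple tests. The fitting steps were tested on simulated counts in which few genes changed, rises and falls were balanced and no library stood apart. That test does not cover how calls depend on the scale or on vehicle replicate 1. Of 37 rows with a member's symbol, 1 on an alternate sequence was left out.

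The genes and lists were chosen with earlier results of these data known. All 36 genes are named by role. Library values are given for the largest called rise and fall of each role and for SREBF1, SREBF2, INSIG1, FASN and SCD, and for the largest called rise and fall of each related list, among genes averaging 1 CPM or more. Some results of this rule are not reported here. HMGCS1, FADS1 and ACSL1 were added after their values were seen, ACSL1 for its uneven vehicle libraries. Alternative settings were other scalings (RLE, or only library totals), other filters, DESeq2 1.42.0, limma 3.58.1 after adding 1 or 0.1 to the RPKM and taking log2 (mean RPKM of 0.5 or more), the replicate number as a block, leaving out each library, and a minimum of 1.5-fold.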

Additional observations from a re-analysis of the deposited data

How the results depend on the processing

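Each gene was recomputed under 14 alternatives, and no log2 fold change of a called gene changed sign. Of the 19 called genes, 13 kept their call under all 14: the exceptions are HMGCS1, NSDHL, EBP, DHCR7, SREBF1 and FADS2. Of the 17 uncalled genes, 8 stayed uncalled in all. With library totals alone, 2698 genes were called higher and 7282 lower of all tested, against 4145 and 4278, the synthesis genes gave 7 and 12 against 12 and 7, and the related genes 18 higher against 29; the median of all genes was then -0.14. By limma on log2(RPKM + 1), 2406 genes and 16 related genes were higher, and on log2(RPKM + 0.1), 2402 and 16; the synthesis genes gave 9 and 9 in both. A minimum of 1.5-fold left 3417 genes (1779 higher, 1638 lower), 1 synthesis gene higher and 3 lower, and 12 related genes higher and 16 lower, by its construction. The cause of the shifts with library totals and RPKM was not tested. Leaving out each library in turn gave 11 to 16 synthesis genes higher and 6 to 9 lower.

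Deviations of same-numbered samples from their condition means correlated at 0.0652, 0.0623 and 0.0129, beside -0.0702 to 0.0136 for differently numbered samples. These small values do not settle whether the replicate numbers pair the samples. TGF-beta replicates 1 and 2 each correlated best with the vehicle sample of their own number, while TGF-beta replicate 3 had nearly equal values with vehicle replicates 2 and 3 (0.0136 and 0.0129). With the replicate number as a block, 11 synthesis genes were higher and 8 lower: SREBF1 lost its call (0.18, adjusted p = 0.0949, edgeR quasi-likelihood test) and ELOVL1 was called lower (-0.14). With 3 libraries a condition, an exact permutation test of 1 value cannot go below p = 0.1.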

Other observations

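For 4 genes, the gene overlapping them on the other strand was read beside them. RUSC1-AS1, antisense to FDPS, had a log2 fold change of 0.28, beside 0.29 for FDPS, and CTD-2636A23.2, antisense to HMGCS1, had -0.22, beside -0.19 for HMGCS1. MMAB, which overlaps MVK by 306 exon bases, fell by 0.28 while MVK was at -0.02, and STARD4-AS1 rose by 0.68 while STARD4 was at 0.11. These genes were chosen after their values were seen, and whether their counts hold reads of the neighbouring gene was not tested.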
